A study of Homo sapiens with 11 samples.

Results

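The comparison is of the longest with the shortest exposure to hypoxia, 24 h against 6 h in 1% oxygen. It was made by taking the 2 libraries of the 24 h group and the 3 of the 6 h group, 5 of the 11 libraries analysed here, across all genes of the count table. Of 60676 genes, 19981 had enough counts to be tested. Both groups were RWPE1 cells, an immortalized and non-tumorigenic line of human prostate epithelium, and the medium of both held 10 mM HEPES, so oxygen and buffer were the same on each side. The normoxic cells (0 h), which had no HEPES, and the 12 h cells (1% oxygen, 10 mM HEPES) entered the fit and are given as reference levels. The study asked which transcripts follow hypoxia in prostate epithelial cells, and SLC2A3, the gene of the glucose transporter GLUT3, is the one it pursued. RWPE1 is a single line, the replicates are numbered but nothing states that they were separate cultures, and p-values then measure only the spread between these libraries. Of the 24 h group a further library is not analysed here.

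When oxygen falls, prolyl hydroxylases no longer mark the alpha subunits of the hypoxia-inducible factors (HIF) for destruction, and HIF binds the core sequence ACGTG near its target genes. Early targets raise glucose uptake, glycolysis and signals for new vessels, and some of them, such as the hydroxylases, act back on the pathway. Longer hypoxia is also met by stress pathways, by lower use of oxygen in mitochondria and by control of protein synthesis, and a change in any transcript between a short and a long exposure can be a continued rise, a return or a late start.

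The 5 libraries held 27496009 to 49488345 counted reads, and 24 h replicate 2 stood apart from the rest. Its TMM factor, which scales a library by the genes that most libraries share, was 0.539, against 0.851 in 24 h replicate 1 and 1.03 to 1.07 at 6 h. Ribosomal protein genes took 25.3% of its counts, 15.8% in 24 h replicate 1 and 7.42% to 8.77% at 6 h. Mitochondrial genes took 0.369%, 1.74% and 4.30% to 5.27%, in the same order. The pair at 24 h differed by more than 1 on the log2 scale in 28.7% of tested genes, and pairs at 6 h in 5.38% to 8.78%. Values with each 24 h library alone are therefore given for the main genes and lists. Levels are counts per 1000000 reads after TMM scaling (CPM) and serve to compare libraries, not genes.

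Genes were compared by the quasi-likelihood test of edgeR, and p-values were adjusted after Benjamini and Hochberg over all tested genes. At an adjusted p under 0.05, 8479 genes (42.4%) differed between 24 h and 6 h in a fit to all 11 libraries. The number depends on the fit: limma-voom with sample quality weights called 2531 genes, and edgeR on the 5 libraries alone 3916. Of the 8479, 4423 were higher at 24 h (22.1% of tested genes) and 4056 lower (20.3%). Scaling by library size alone gave 1269 higher and 7373 lower. The median log2 fold change over all tested genes was -0.0010 with TMM and -0.59 with library size, and the fold changes below, also where a gene rose or fell by a value, are log2 values with TMM. At least 2-fold differences were called for 2479 genes higher and 2413 lower. Both 24 h libraries lay above all 3 libraries at 6 h in 5116 genes (25.6%) and below them in 5543 (27.7%), so the groups did not overlap in 10659 genes (53.3%). With 24 h replicate 1 as the only 24 h library, 3551 genes were called higher (17%) and 3607 lower (17.2%); with replicate 2 alone, 5178 (24.8%) and 5366 (25.7%). With 2 libraries on one side and 3 on the other, exact two-sided permutation of the labels goes no lower than p = 0.2, so it is not used.

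PTGS2, which encodes the inducible cyclooxygenase that starts prostaglandin synthesis (chr1:186671791-186680922, minus strand, GRCh38), had the largest rise among protein-coding genes with a mean of at least 1 CPM whose libraries did not overlap. It stood at 83.9 and 12.6 CPM in the 24 h libraries and at 1.64, 1.01 and 1.46 CPM at 6 h. The log2 fold change was 5.14 ± 0.65 (SE; adjusted p = 0.00014), 5.93 with 24 h replicate 1 alone and 3.17 with replicate 2 alone. Both 24 h libraries were far above 6 h, and they were far from each other. GADD45G, a growth arrest and DNA damage gene (chr9:89605012-89606555, plus strand), showed the opposite spread, with close 24 h libraries at 18.95 and 16.2 CPM over 0.649, 1.01 and 0.986 CPM at 6 h. Its log2 fold change was 4.30 ± 0.23 (adjusted p = 3.6e-06), 4.40 and 4.14 with either 24 h library alone. EDN2, the vasoconstrictor peptide endothelin 2, was at 111 and 446 CPM after 24 h and at 26.0, 20.4 and 12.2 CPM after 6 h, a log2 fold change of 3.83 ± 0.55 (adjusted p = 0.00028).

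The other genes among the 15 with the largest rise had varied functions. DDIT3, the stress transcription factor CHOP, was at 15.1 and 13.5 CPM against 1.78, 1.82 and 1.38 CPM, and its log2 fold changes with the 24 h libraries alone, 3.21 and 3.02, were close, with 31.6% of its exonic bases opposite another gene. CLEC2B, a C-type lectin, was as even at 5.90 and 6.32 CPM over 0.324 to 0.891 CPM. FBXO32, the ubiquitin ligase atrogin-1, stood at 133 and 47.0 CPM over 6.27 to 9.47 CPM. Both 24 h libraries were above all 6 h libraries in each of the 15, since the selection required it. GEM, a small GTPase, had log2 fold changes of 4.80 and 2.26 with 24 h replicate 1 and 2 alone, and RASD1, a Ras-related protein, 3.91 and 1.35. KLF17, a zinc finger transcription factor, and CXCL8, the neutrophil chemokine interleukin 8, rested on 24 h replicate 1: with replicate 2 alone their log2 fold changes were 1.65 (adjusted p = 0.27) and 1.69 (adjusted p = 0.067), against 4.68 and 4.43 with replicate 1. NEURL3, a ubiquitin ligase, and the matrix protein gene SMOC2 were below 7 CPM in each of the 5 libraries. The histone genes H2BC11 and H2AC20 and the ribosomal protein gene RPL35 complete the 15 and are described with their families.

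Among the genes that fell, TXNIP, an inhibitor of thioredoxin and of glucose uptake (chr1:145992435-145996579, minus strand), was at 4.71 and 5.34 CPM after 24 h and at 56.9, 53.8 and 30.2 CPM after 6 h. Its log2 fold change was -3.22 ± 0.29 (adjusted p = 3.7e-05), -3.31 and -3.16 with either 24 h library alone. MAT2A, which makes S-adenosylmethionine, the methyl donor of the cell (chr2:85539168-85545281, plus strand), was at 39.8 and 34.2 CPM against 254, 237 and 278 CPM, a log2 fold change of -2.79 ± 0.22 (adjusted p = 3.0e-05). SOCS7, of the suppressor of cytokine signalling family, was at 8.26 and 7.74 CPM against 58.2, 62.7 and 44.1 CPM (-2.78 ± 0.19; adjusted p = 1.2e-05). In these 3 genes the 24 h libraries nearly coincided. SPRY4, a feedback inhibitor of growth factor receptors, was at 4.49 and 2.83 CPM over 20.7 to 35.9 CPM at 6 h. GPR75, a receptor, VAMP1, a vesicle fusion protein, FLG, the epidermal protein filaggrin, and ZBED6, a transcription factor derived from a transposon, had log2 fold changes of -2.79, -2.96, -2.88 and -2.85, all from levels under 5 CPM at 6 h. C22orf23 shares 59.6% of its exonic bases with a gene on the opposite strand and its value is uncertain, since the strand setting of the counting is not given in the sources used here. DNAAF1, which serves the assembly of dynein arms, was counted 3 times and 1 time in the 24 h libraries, and DUOXA2, a maturation factor of a dual oxidase, 7 times and 1 time, so no fold is given for them. The mitochondrial genes MT-ND3, MT-CO3, MT-ND5 and MT-ND6 were the remaining 4 of the 15.

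**Figure D1:**
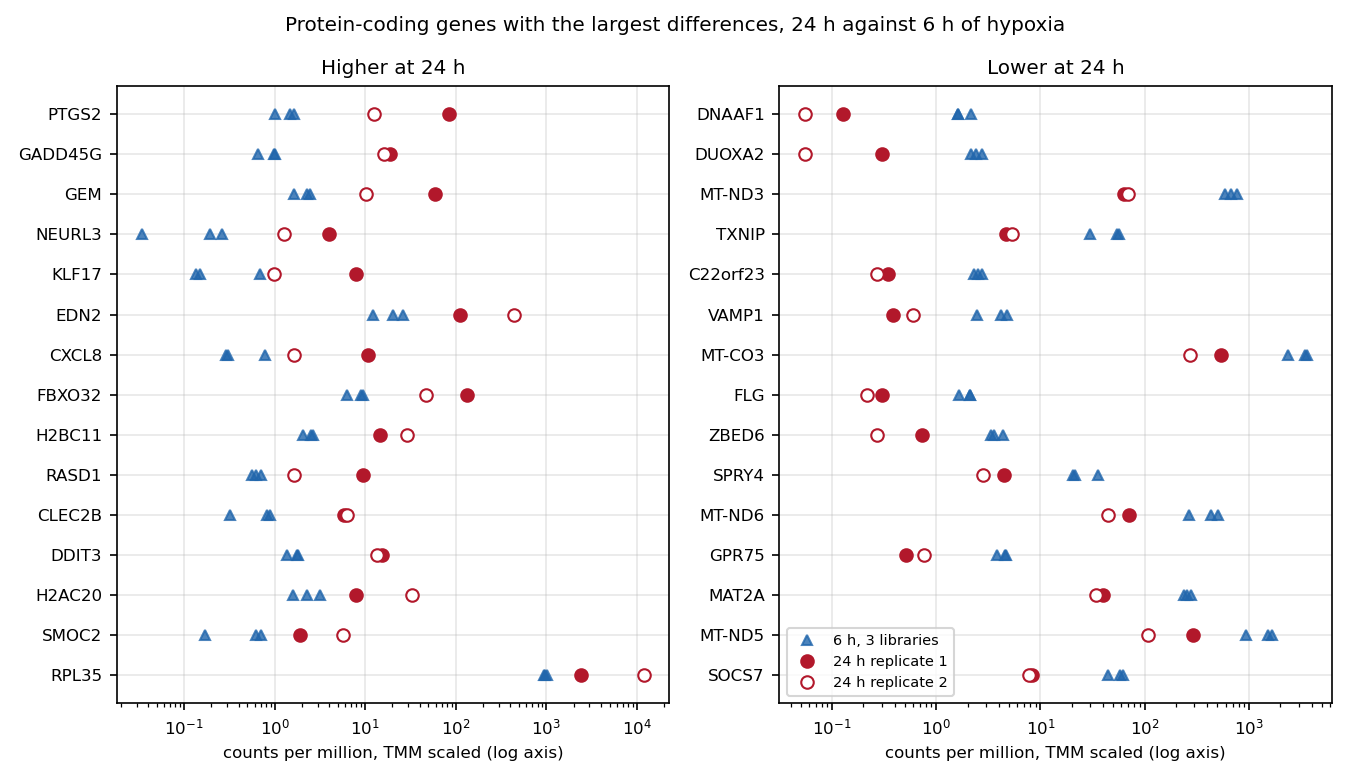
Levels of the 15 protein-coding genes with the largest rise (left) and the 15 with the largest fall (right) in TMM-scaled CPM on a log axis, one mark per library: 24 h replicate 1 (filled circles), 24 h replicate 2 (open circles) and the 3 libraries at 6 h (triangles). GADD45G, DDIT3 and MAT2A have 24 h libraries close together, while those of PTGS2, at 83.9 and 12.6, and of RPL35, at 2409.6 and 12083, are far apart.

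A part of the HIF pathway was higher at 24 h than at 6 h. Of 30 listed HIF targets, 16 were called higher and 1 lower at 24 h against 22.1% and 20.3% of all tested genes, with a median log2 fold change of 0.53 that was 0.52 with 24 h replicate 1 alone and 0.54 with replicate 2 alone; library size scaling turned the median to -0.090, with 6 higher and 5 lower. CA9, the pH-regulating carbonic anhydrase 9 of the cell surface, rose from 7.35, 8.21 and 4.83 CPM at 6 h to 40.6 and 36.9 CPM at 24 h, a log2 fold change of 2.52 ± 0.36 (adjusted p = 0.00029), although 35.7% of its exonic bases lie opposite another gene. SLC2A1, the glucose transporter GLUT1, was as even: 3890.6 and 4034 CPM over 1767, 1760 and 1384 CPM, a log2 fold change of 1.28 ± 0.22 (adjusted p = 0.00073). ANGPTL4, a secreted inhibitor of lipoprotein lipase, and ADM, the vasodilator adrenomedullin, rose by 2.02 and 1.63, more with 24 h replicate 2 alone (2.56 and 1.99) than with replicate 1 alone (1.08 and 1.09). The mitophagy receptor BNIP3, at 576 and 925 CPM over 235 to 348 CPM, and LOX, which cross-links collagen, also rose. So did PDK1, which holds pyruvate back from mitochondria, and the collagen hydroxylase P4HA1, each by 0.76.

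The proximal promoters of 3 HIF targets and of GAPDH are shown because they hold the HIF core sequence within 250 bases before the RefSeq start (GRCh38.p14). These promoters were picked, after the values were seen, from members called higher that hold the sequence. They are written 5′ to 3′ on the gene's strand, with ACGTG or its reverse complement CACGT in capitals, overlapping matches running together. The windows are chr9:35673678-35673927 (plus strand) for CA9, chr19:8363905-8364154 (plus) for ANGPTL4, chr10:131981924-131982173 (minus) for BNIP3 and chr12:6535014-6535263 (plus) for GAPDH.
CA9: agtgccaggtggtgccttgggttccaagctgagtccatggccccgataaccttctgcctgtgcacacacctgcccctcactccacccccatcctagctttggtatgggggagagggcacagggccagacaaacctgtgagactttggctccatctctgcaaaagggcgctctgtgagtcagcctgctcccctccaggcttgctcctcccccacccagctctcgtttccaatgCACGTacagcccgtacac
ANGPTL4: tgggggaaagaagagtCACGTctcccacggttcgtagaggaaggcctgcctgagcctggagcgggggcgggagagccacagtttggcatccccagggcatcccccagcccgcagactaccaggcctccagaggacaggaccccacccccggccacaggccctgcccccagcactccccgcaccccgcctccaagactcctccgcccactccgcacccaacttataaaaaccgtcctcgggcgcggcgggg
BNIP3: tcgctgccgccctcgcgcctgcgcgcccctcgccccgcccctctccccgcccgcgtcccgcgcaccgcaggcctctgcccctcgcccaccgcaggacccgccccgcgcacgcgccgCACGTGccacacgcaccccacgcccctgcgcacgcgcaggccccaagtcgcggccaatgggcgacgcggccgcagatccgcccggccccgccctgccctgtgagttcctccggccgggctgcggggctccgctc
GAPDH: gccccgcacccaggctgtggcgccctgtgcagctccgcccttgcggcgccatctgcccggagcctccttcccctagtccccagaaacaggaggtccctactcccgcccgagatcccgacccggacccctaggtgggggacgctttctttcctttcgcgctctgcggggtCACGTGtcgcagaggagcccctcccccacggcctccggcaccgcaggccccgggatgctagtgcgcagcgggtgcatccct
The match in CA9 begins 18 bases before the start and that of ANGPTL4 234 bases before it, so position was not shared. Shares were counted over longer windows, from 250 bases before to 50 after the start. Of the HIF targets with such a window, 12 of 23 held the sequence on either strand (52.2%). It was found in 8 of 12 among those called higher (66.7%) and 3 of 10 among those not called (30%). Over all tested genes it was found in 29.5% of those called higher and 25.6% of those not called. The sequence was present in 8 of 17 glycolysis windows (47.1%), in 26.3% of tested genes and in 21.6% of all RefSeq promoters. A match is a description of the letters and does not show that HIF was bound.

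Glycolysis, the breakdown of glucose to pyruvate and lactate, had 10 of 18 genes higher (55.6%, against 22.1% of all tested genes) and 1 lower (5.56%, against 20.3%). The median was 0.61 (0.55 and 0.70 with the 24 h libraries singly), and by library size 2 genes were higher and 2 lower. The enzymes that rose were TPI1, at 1768 and 3477 CPM over 880 to 964 CPM, GAPDH, at 3079 and 4134 CPM over 1588 to 1840 CPM, ENO1, PKM, ALDOC, PGAM1, GPI, LDHA, PFKP and PGK1. TPI1 had the largest log2 fold change, 1.49 ± 0.24 (adjusted p = 0.00047), and LDHA, which makes lactate, one of 0.70. SLC16A1, a lactate transporter, was the member that was lower, at -0.62, and its call was lost with 24 h replicate 1 alone (-0.40, adjusted p = 0.063). The hexokinase HK2, the first step, was not called: it stood at 1069.5 and 502 CPM over 543 to 618 CPM, with log2 fold changes of 0.88 and -0.24 in the 24 h libraries.

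Other genes of the pathway were not called or were lower. SLC2A3 (chr12:7919230-8019007, minus strand) was at 74.7 and 43.6 CPM after 24 h and at 43.6, 38.4 and 50.4 CPM after 6 h. The groups overlap, the log2 fold change of 0.42 ± 0.20 had an adjusted p of 0.11, and it was 0.76 (adjusted p = 0.0025) with 24 h replicate 1 alone, -0.051 (adjusted p = 0.82) with replicate 2 alone and -0.092 by library size. SLC2A3 has a close copy in SLC2A14, and reads can be shared between them. The paper used RT-PCR primers specific to each gene and detected no message of the copy in normoxic or hypoxic cells. SLC2A3 was at 2.48 ± 0.27 CPM (SD) at 0 h, without HEPES, and at 58.6 ± 2.1 CPM at 12 h. A rise from normoxia, which the paper reports, is a different comparison and was not tested here. VEGFA, the vascular growth factor (chr6:43770184-43786487, plus strand), was at 381 and 160 CPM against 336, 384 and 329 CPM. Its log2 fold change was -0.37 ± 0.27 (adjusted p = 0.29), 0.12 with 24 h replicate 1 alone and -1.16 (adjusted p = 5.0e-05) with replicate 2 alone, so the direction turned with the library. The hydroxylase gene EGLN1 was lower at -0.81 (adjusted p = 0.0094), a call lost with 24 h replicate 1 alone (adjusted p = 0.050), while EGLN3, at 219 and 337 CPM over 134 to 220 CPM, was not called. HIF1A, at 326 and 219 CPM over 196 to 276 CPM, was not called either, and HIF3A was too low to test. EPAS1, the gene of HIF-2 alpha, at 213 and 195 CPM below 265 to 287 CPM, had a log2 fold change of -0.42 (adjusted p = 0.031), which became -0.15 (adjusted p = 0.32) with an offset for exonic length and GC.

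Ribosomal protein genes were higher nearly as a block. Of 82 genes of the cytosolic ribosome, 79 were called higher (96.3%, against 22.1% of all tested genes) and 0 lower (against 20.3%). Their median log2 fold change was 2.08, 1.26 with 24 h replicate 1 alone and 2.58 with replicate 2 alone. With library size 77 were still called higher. RPL35, a large subunit protein (chr9:124857880-124861981, minus strand), was at 2409.6 and 12083 CPM over 962, 937 and 1023 CPM, a log2 fold change of 2.90 ± 0.46 (adjusted p = 0.00046). RPL9 was at 2637 and 11383 CPM over 855 to 1158 CPM, and RPL26 at 1503 and 4295 CPM over 358 to 514 CPM. Neither 24 h library overlapped 6 h in these genes, and replicate 2 was the higher in each. RPL36A and RPS27L were among the members not called. Many ribosomal protein genes have near-identical processed pseudogenes, so single values are uncertain. Of 2158 tested processed pseudogenes, 834 were themselves called higher (38.6%, against 22.1% of all tested genes).

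Transcripts of ribosomal proteins usually begin in an uninterrupted stretch of pyrimidines, through which their translation is controlled. The 30 bases around the RefSeq start are shown for the 3 members with the largest rise. In RPL35 and RPL26 the pyrimidine run spans that start, while in RPL9 it begins at base 21 of the 30, after the start. These windows were chosen after their values were seen. They run from 15 bases before to 15 bases after the start, on the minus strand in each case, at chr9:124861943-124861972 (RPL35), chr4:39458908-39458937 (RPL9) and chr17:8383179-8383208 (RPL26), with the pyrimidine run in capitals.
RPL35: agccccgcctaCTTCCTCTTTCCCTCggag
RPL9: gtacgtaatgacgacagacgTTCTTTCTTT
RPL26: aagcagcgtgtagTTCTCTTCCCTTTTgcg
A run of at least 8 pyrimidines within 5 bases of the start was present in 50 of 66 ribosomal protein genes with a window (75.8%) and in 11.5% of tested genes. It was found in 5 of 13 noncoding host genes of small nucleolar RNAs (38.5%). In mitochondrial ribosomal proteins the share was 8.82%, and in nuclear respiratory chain genes 12.7%. Small nucleolar RNAs guide the modification of ribosomal RNA. Of their 15 noncoding host genes, 13 were higher (86.7%, against 22.1% of all tested genes) and 1 lower (6.67%, against 20.3%). The median was 1.72 (1.26 and 2.10 with the 24 h libraries singly). GAS5 was at 400 and 753 CPM over 126 to 194 CPM, and SNHG5 at 233 and 524 CPM over 69.4 to 130 CPM. SNHG3 was the member that was lower, at -0.97 (adjusted p = 0.0098).

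Of 33 ribosome biogenesis genes, the factors that build ribosomes, 6 were higher (18.2%) and 9 lower (27.3%), near the background of 22.1% and 20.3%, with a median of -0.23 (-0.14 and -0.16 singly). By library size 2 were higher and 18 lower. NPM1, the nucleolar chaperone nucleophosmin, was at 3582 and 4970 CPM over 1858 to 2184 CPM, a log2 fold change of 1.11 ± 0.21 (adjusted p = 0.0014). POLR1A, the largest subunit of RNA polymerase I, was at 35.1 and 35.9 CPM over 63.2 to 104 CPM, a log2 fold change of -1.32 ± 0.23 (adjusted p = 0.00091). MYC, the transcription factor that drives many of these genes, fell by 1.00 on the log2 scale, at 172 and 131 CPM under 228 to 414 CPM.

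**Figure D2:**
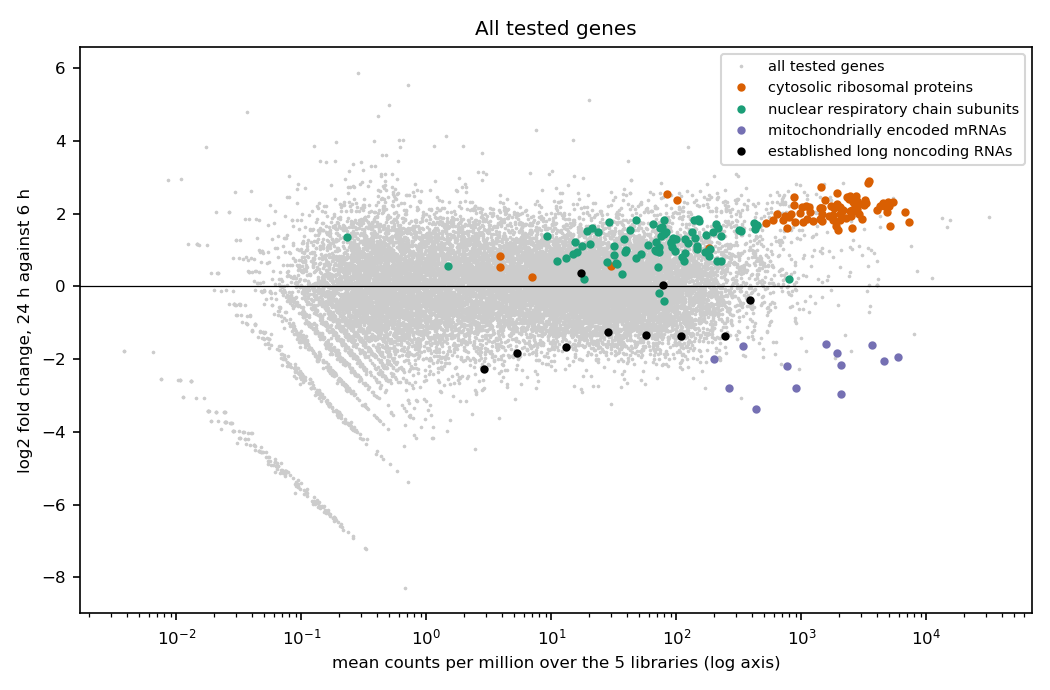
Log2 fold change between 24 h and 6 h (vertical axis) against the mean TMM-scaled CPM over the 5 libraries (log axis) for the 19981 tested genes, with 4 gene lists in colour. Ribosomal protein genes and nuclear genes of the respiratory chain lie above 0 with few exceptions, the 13 mitochondrially encoded mRNAs all lie below it, and the diagonal streaks at the lower left are genes with few counts.

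The respiratory chain split by genome. Its complexes are built from 13 proteins encoded in mitochondrial DNA and from many more encoded in the nucleus. Each of the 13 mitochondrial mRNAs was called lower, against 20.3% of all tested genes, and 0 were higher. Their median log2 fold change was -2.04 (-1.63 with 24 h replicate 1 alone, -3.18 with replicate 2 alone). By library size 13 were lower as well. MT-CO3, a core subunit of cytochrome oxidase, was at 547 and 273 CPM over 3486, 3610 and 2383 CPM. MT-ND3, of complex I, had close 24 h libraries, 62.9 and 70.0 CPM over 676, 778 and 593 CPM, and a log2 fold change of -3.36 ± 0.22 (adjusted p = 1.2e-05). MT-CYB, the cytochrome b of complex III, changed least, by -1.58. Of the mitochondrial ribosomal RNAs, MT-RNR2 was lower by 1.32 on the log2 scale (adjusted p = 0.035) and MT-RNR1 was not called, at 1104 and 380 CPM over 921 to 1114 CPM.

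Nuclear subunits of the same complexes went the other way. Of 78 tested, 69 were called higher (88.5%, against 22.1% of all tested genes) and 0 lower (against 20.3%). Their median was 1.18 (0.60 and 1.58 with the 24 h libraries singly), and by library size 35 were higher and 3 lower. COX6A1, a small subunit of cytochrome oxidase, was at 147 and 380 CPM over 72.1 to 75.1 CPM, a log2 fold change of 1.85 ± 0.28 (adjusted p = 0.00036). ATP5MG and COX7B, small subunits of ATP synthase and cytochrome oxidase, rose by 1.83 and 1.82. The larger subunits SDHA, ATP5F1B and NDUFS1 were not called, with log2 fold changes of 0.20, 0.20 and -0.39. Mitochondrial ribosomal proteins, which translate the mitochondrial mRNAs, had 65 of 77 members higher (84.4%) and 0 lower. Their median was 0.97 (0.44 and 1.24 singly), and by library size 20 were higher and 4 lower (median 0.28). Their largest rise, MRPL12, rested on 24 h replicate 2, at 50.8 CPM against 5.78 CPM in replicate 1 and 4.31 to 7.17 CPM at 6 h. Without that library its log2 fold change was -0.024.

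Genes of short exonic length were higher at 24 h as a class. Exonic length here joins all annotated exons of a gene and can exceed the length of its mRNA. When protein-coding genes were divided into quintiles of exonic length, the median log2 fold change fell from 0.60 in the shortest quintile through 0.18, -0.06 and -0.23 to -0.44 in the longest. The share called higher fell from 44.7% to 9.61% and the share called lower rose from 6.56% to 39%. Both 24 h libraries showed the order, from 0.26 to -0.24 with replicate 1 alone and from 0.79 to -0.76 with replicate 2 alone. It remained when 5 gene lists were left out, from 0.53 to -0.44. These were cytosolic and mitochondrial ribosomal proteins, nuclear respiratory chain subunits, the proteasome and replication-dependent histones. Their median exonic lengths were 3208, 2549, 2545, 4399 and 731 bases. On this measure RPL9 has 4938 bases and ATP5MG 8358, so it does not rank genes by the length of their mRNAs. The offset below uses the same measure, and the part of mRNA length was not tested. Under the offset for exonic length and GC the medians were 2.06 for ribosomal proteins, 1.07 for nuclear respiratory chain genes, 0.86 for mitochondrial ribosomal proteins and 1.06 for histones. The part of RNA quality or library preparation in this order was not tested.

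**Figure D3:**
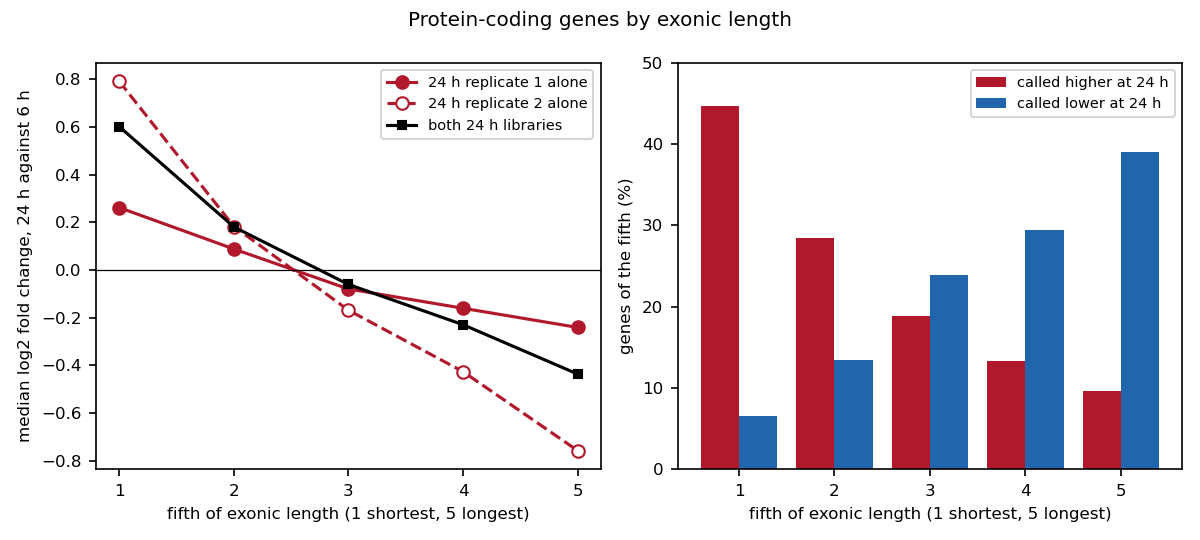
Protein-coding genes in quintiles of exonic length, with the median log2 fold change between 24 h and 6 h (left) for both 24 h libraries together and each alone, and the share of each quintile called higher or lower (right). The medians fall from quintile to quintile in either 24 h library, less steeply in replicate 1, and the share called higher falls from 44.7% to 9.61%.

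Histone and proteasome genes had many members higher as well, while the metallothioneins differed between the 24 h libraries. Of 37 tested replication-dependent histone genes (66 listed), 22 were called higher (59.5%, against 22.1% of all tested genes) and 1 lower (2.7%, against 20.3%). Their median was 1.49, 0.69 with 24 h replicate 1 alone and 1.93 with replicate 2 alone. By library size 11 were higher and 2 lower, with a median of 0.75. H2BC11 was at 14.7 and 29.0 CPM over 2.07 to 2.63 CPM, and H2AC25 at 33.4 and 120 CPM over 9.91 to 14.3 CPM. Their mRNAs end without a poly(A) tail as a rule, and near-identical copies make single histone values uncertain. Of 33 subunits of the proteasome, which degrades marked proteins, 24 were higher (72.7%) and 0 lower, with a median of 0.72 (0.38 and 0.98 singly). By library size 7 were higher and 1 lower, with a median of 0.040. PSMD13 was at 138 and 200.2 CPM over 62.7 to 65.1 CPM, a log2 fold change of 1.41 ± 0.16 (adjusted p = 1.0e-04). Metallothioneins, which bind metal ions, had 4 of 8 higher (50%) and 0 lower. Their median was 0.95, -0.11 with 24 h replicate 1 alone and 1.505 with replicate 2 alone. By library size 1 was higher and 0 lower. Both 24 h libraries lay above all 6 h libraries in 1 of the 8, against 25.6% of all tested genes. MT1X had a log2 fold change of -0.067 with 24 h replicate 1 alone and 1.74 with replicate 2 alone.

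**Figure D4:**
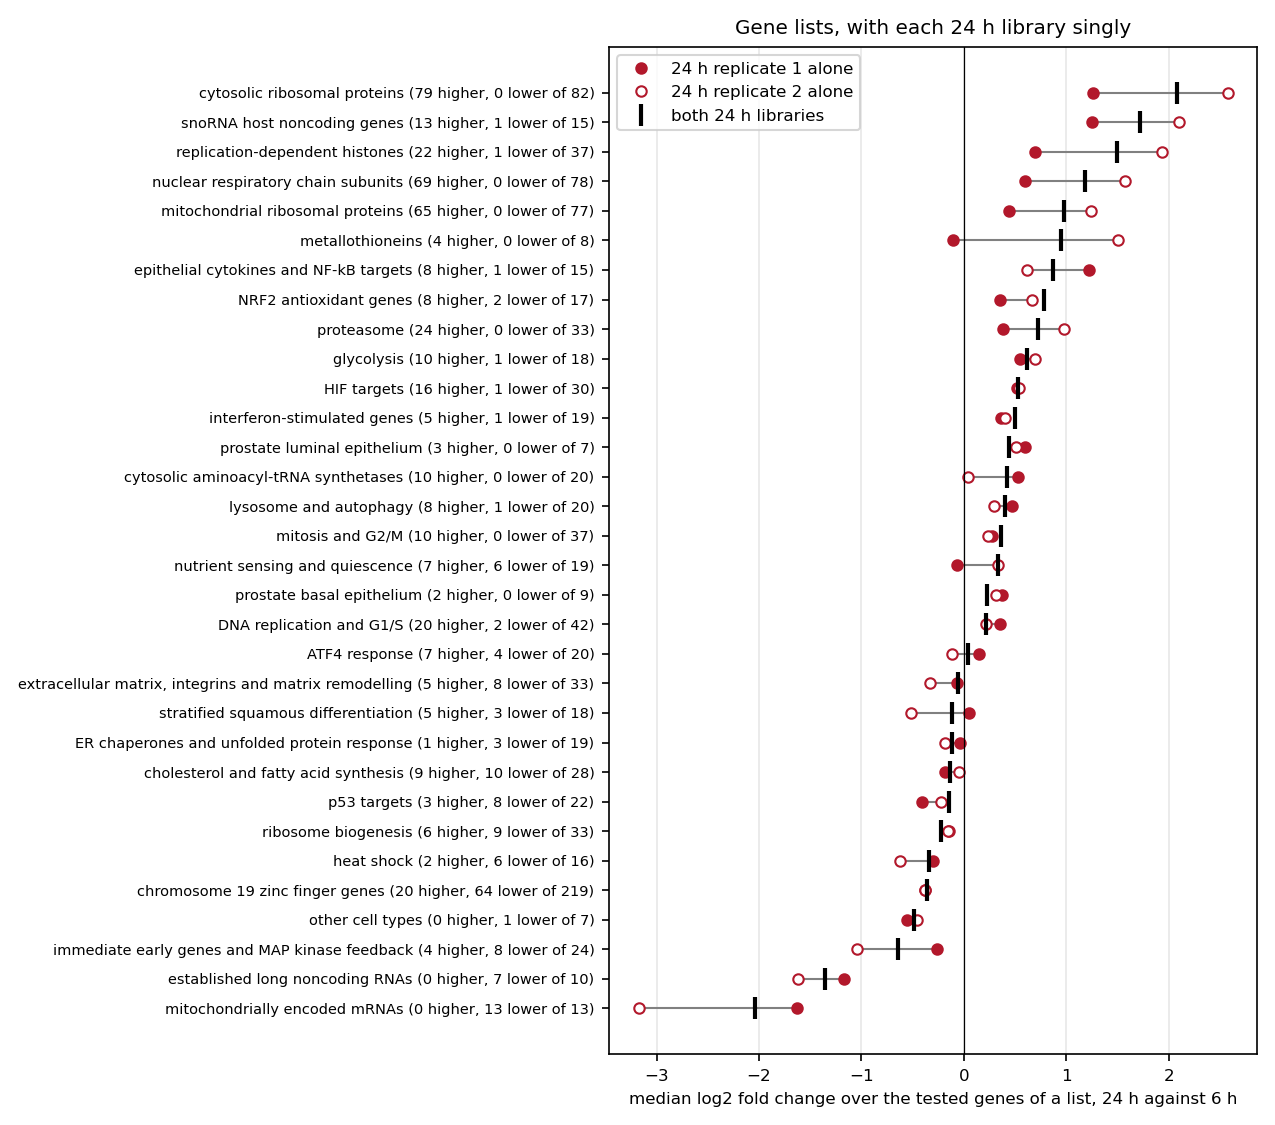
Median log2 fold change between 24 h and 6 h over the tested genes of each list, with both 24 h libraries (black bars), 24 h replicate 1 alone (filled circles) and replicate 2 alone (open circles); the labels give the genes called. Ribosomal proteins lie at 2.08 and mitochondrially encoded mRNAs at -2.04, and the positive medians of HIF targets, DNA replication, mitosis, tRNA synthetases, basal and luminal epithelium, interferon-stimulated genes, lysosome, nutrient sensing and the ATF4 response turn negative when libraries are scaled by size alone.

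Of 15 tested cytokine and NF-kB target genes, 8 were called higher (53.3%, against 22.1% of all tested genes) and 1 lower, with a median of 0.87 (1.22 and 0.61 with the 24 h libraries singly). With 24 h replicate 1 alone 12 were called higher, and with replicate 2 alone 5. IL1A, the alarm cytokine interleukin 1 alpha, was at 121 and 66.5 CPM over 24.8, 26.4 and 32.6 CPM, a log2 fold change of 1.75 ± 0.28 (adjusted p = 0.00049). IL18 and the interleukin 1 antagonist IL1RN rose by 1.10 and 0.63. NFKBIA and TNFAIP3, inhibitors of NF-kB, were not called, at 0.87 and 0.77. LIF, a cytokine of the interleukin 6 family, was the member that was lower, from 1.01 to 1.44 CPM to 0.214 and 0.272 CPM. Of the markers of immune cells, PTPRC, the antigen CD45, was counted at most 3 times in any of the 5 libraries, LYZ at most 1 time, CD3E and MS4A1 were at 0, and CD14 was at 1.67 to 3.38 CPM.

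The immediate early genes and the feedback inhibitors of MAP kinase had 4 of 24 members higher (16.7%, against 22.1% of all tested genes) and 8 lower (33.3%, against 20.3%), with 12 not called and a median of -0.64 (-0.27 and -1.05 singly). FOS was higher, at 23.0 and 6.43 CPM over 2.34 to 3.71 CPM (2.34 ± 0.46; adjusted p = 0.0017), and so were IER3 and ATF3. IER3, an early gene of cell survival, was the most even at 155 and 189 CPM over 35.9 to 47.8 CPM, with 38.9% of its exonic bases opposite another gene. FOSL1, the AP-1 subunit FRA1, fell from 76.7, 76.7 and 128 CPM to 30.9 and 20.2 CPM (-1.87 ± 0.34; adjusted p = 0.0011). The phosphatase gene DUSP6 fell by 1.29, a call lost with 24 h replicate 1 alone (adjusted p = 0.23), and DUSP4 by 1.09.

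Cholesterol and fatty acid synthesis had 9 of 28 genes higher (32.1%, against 22.1% of all tested genes) and 10 lower (35.7%, against 20.3%), with a median of -0.14 (-0.18 and -0.043 singly), and by library size 2 were higher and 17 lower. EBP, MVK and MVD, enzymes of the sterol pathway, rose by 1.77, 1.16 and 1.10, while ACACA, the first enzyme of fatty acid synthesis, was at 69.7 and 42.3 CPM under 133 to 152 CPM (-1.36 ± 0.19; adjusted p = 0.00026). LSS, a sterol cyclase, and FASN, the fatty acid synthase, fell by 1.23 and 1.05. Of 20 genes of the ATF4 amino acid response, 7 were higher (35%) and 4 lower (20%), and by library size 4 and 8. Their median was 0.041, 0.15 with 24 h replicate 1 alone and -0.11 with replicate 2 alone, so its sign turned with the library. NUPR1, a stress protein, was at 109 and 105 CPM over 37.6 to 48.6 CPM, and TRIB3, a pseudokinase, at 267 and 295 CPM over 99.7 to 134 CPM. SLC7A5, an amino acid transporter, was at 562 and 573 CPM under 919 to 1455 CPM and SLC7A11, the cystine transporter, was also lower, the latter not with 24 h replicate 1 alone (-0.49, adjusted p = 0.13).

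Of 17 NRF2 antioxidant genes, 8 were higher (47.1%, against 22.1% of all tested genes) and 2 lower (11.8%, against 20.3%). Their median was 0.79 (0.35 and 0.66 singly). By library size it was 0.18, with 5 higher and 5 lower. The aldo-keto reductases AKR1C1, AKR1C2 and AKR1C3, whose sequences are so alike that reads can be shared, rose by 1.43, 1.59 and 2.09, and NQO1, a quinone reductase, was at 183 and 309 CPM over 83.9 to 107 CPM. TXNRD1, thioredoxin reductase, fell by 1.42 with both 24 h libraries below 6 h, at 101 and 115 CPM under 276 to 315 CPM. Of 16 heat shock genes, 2 were higher (12.5%) and 6 lower (37.5%), and by library size 0 and 8. Their median was -0.34 (-0.30 and -0.62 singly). HSPA1A, the inducible HSP70, was at 1204 and 814 CPM under 2572 to 4671 CPM, and its reads can be shared with the near-identical copy HSPA1B. BAG3, a co-chaperone of HSP70, was at 122 and 84.0 CPM under 208 to 461 CPM. Of 22 p53 targets, 3 were higher (13.6%) and 8 lower (36.4%), and by library size 0 and 13. Their median was -0.15 (-0.41 and -0.22 singly). DDB2, a DNA repair protein, was at 63.7 and 67.4 CPM over 27.0 to 34.7 CPM, and BTG2, an antiproliferative gene, at 18.8 and 23.6 CPM under 44.6 to 81.4 CPM.

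Among genes of the cell cycle, 20 of 42 for DNA replication were called higher (47.6%, against 22.1% of all tested genes) and 2 lower, with a median of 0.22 (0.35 and 0.22 singly). Of 37 mitosis genes 10 were higher (27%, near that background) and 0 lower, with a median of 0.37 (0.27 and 0.23 singly), but by library size the medians were -0.35 and -0.23, with 1 and 0 higher and 14 and 4 lower. PRIM1, a primase subunit, was at 9.84 and 9.92 CPM over 4.10 to 4.36 CPM (1.23 ± 0.16; adjusted p = 0.00018). NDC80, of the kinetochore, was at 10.9 and 10.5 CPM over 1.91 to 5.02 CPM, and by library size it was not called (adjusted p = 0.089), nor were HMMR and BIRC5, of the spindle and the chromosomal passenger complex. MKI67, the proliferation marker Ki-67, was not called, at 82.9 and 49.5 CPM against 208, 221 and 58.4 CPM. 6 h replicate 3 had less of the mitosis genes, 826 CPM in sum against 1733 and 1761 CPM in the other 6 h libraries and 1728 and 1545 CPM at 24 h. Without that library NDC80, HMMR and BIRC5, the 3 members with the largest rise, were still called, and without 24 h replicate 2 BIRC5 was not (0.73, adjusted p = 0.16). In bulk RNA a smaller share of cycling cells and less RNA per cell cannot be told apart.

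Markers of the labelled cell type were present at each time. KRT5, a basal keratin, was at 8265 to 13077 CPM over the 5 libraries, and TP63, the basal cell transcription factor, was at 95.2 and 76.1 CPM over 67.003 to 83.3 CPM. Neither was called, and their log2 fold changes of 0.23 and 0.22 became -0.39 and -0.34 by library size. KRT17 was at 13799 and 35676 CPM over 7730 to 8283 CPM, a log2 fold change of 1.63 (0.79 and 2.13 singly). The luminal keratins KRT8 and KRT18 rose by 1.16 and 0.85, calls lost by library size (adjusted p = 0.067 and 0.35). The luminal secretory genes KLK2 and KLK3 were at 0 in each of the 5 libraries. Of 20 markers of other cell types, 13 were too low to test and 5 were at 0 in each of the 5 libraries. Their sum was 34.3 and 34.8 CPM at 24 h and 37.1 to 52.5 CPM at 6 h, most of it COL1A1. Of 33 genes of matrix and adhesion, 5 were higher (15.2%) and 8 lower (24.2%), near the background of 22.1% and 20.3%, with a median of -0.061 (-0.062 and -0.33 singly) and by library size 0 higher and 15 lower. THBS1, the matrix protein thrombospondin 1, was at 67.5 and 58.3 CPM under 121 to 181 CPM (-1.31 ± 0.22; adjusted p = 0.00066).

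The 0 h and 12 h libraries place these differences in time. CA9 and SLC2A1 climbed throughout: CA9 was at 0.756 ± 0.33 CPM at 0 h (SD, n = 3) and 15.9 ± 6.4 at 12 h, and SLC2A1 at 476 ± 40 and 2438 ± 499.8. GADD45G, at 0.900 ± 0.029 CPM at 0 h, was level at 6 h and stood at 4.66 ± 0.72 CPM at 12 h. TXNIP was highest at 6 h, with 4.77 ± 0.71 CPM at 0 h and 5.40 ± 0.80 at 12 h. MAT2A was at 149 ± 14 CPM at 0 h and 69.6 ± 18 at 12 h, so its 6 h libraries were the highest of the series. DDIT3 was far higher in normoxia, at 95.04 ± 17 CPM, than in any hypoxic group, and its 24 h value lay near that of 12 h, 11.5 ± 7.0 CPM. MT-CO3 was at 6348 ± 74 CPM at 0 h and 3038 ± 551 at 12 h, so that its level was close at 6 h and 12 h. The values at 0 h also differ from the rest in HEPES.

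**Figure D5:**
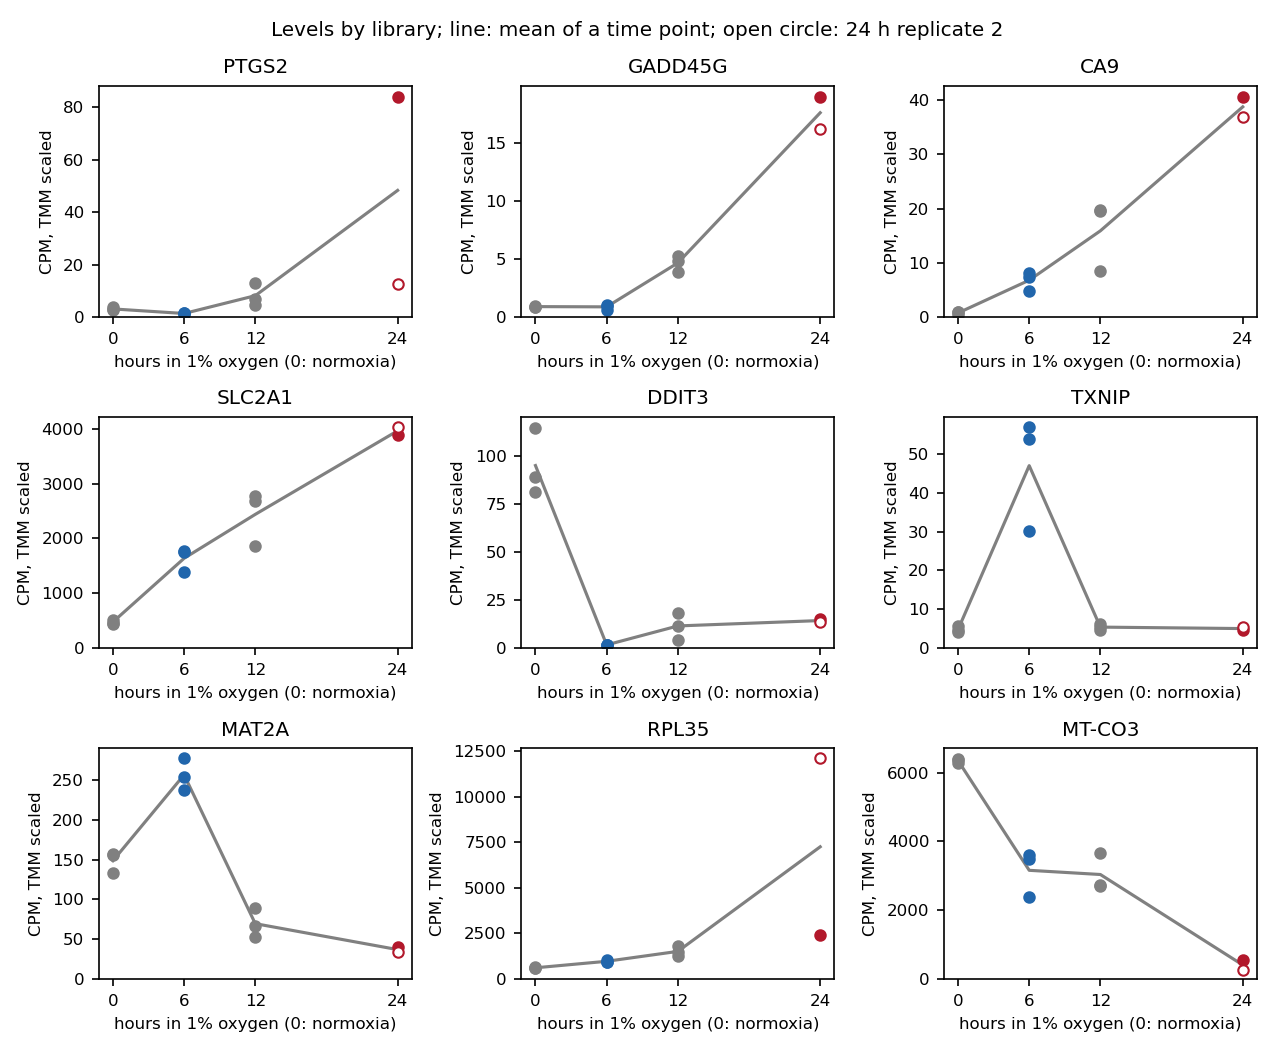
TMM-scaled CPM of 9 genes in each of the 11 libraries by hours in 1% oxygen, with 0 h as normoxia; the line joins the means of the time points, 24 h libraries are red (replicate 2 open), 6 h libraries blue and the others grey. CA9 and SLC2A1 are higher at each later time, TXNIP stands out at 6 h, DDIT3 at 0 h, and the 24 h libraries of PTGS2 and RPL35 lie far apart.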

How the data were processed

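Total RNA of RWPE1 cells was sequenced from stranded libraries as single-end reads. According to the sources, the authors trimmed the reads with Trimmomatic, aligned them with STAR to GRCh38 and ran featureCounts on Ensembl genes. The deposited values are raw counts, with no filter or normalization. Strand setting and treatment of reads with several matches are not given in the sources used here. The 5 libraries compared held 27496009 to 49488345 counts, and 0 columns were left without a sample.

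All 11 libraries were fitted in edgeR 4.0.16 (R 4.3.3) with a mean for each time point, after filterByExpr (minimum count 10, minimum total 15) and TMM. The quasi-likelihood test of 24 h against 6 h was adjusted by Benjamini-Hochberg over the 19981 genes tested, and genes were called under 0.05. The standard error is the absolute log2 fold change over the square root of F. The biological coefficient of variation was 19.6%. A value with 1 24 h library alone comes from the same fit without the other, and the lone library is then assumed to vary like the other groups. Separation of the groups was judged on log2 CPM with a prior count of 2. The tests were checked on simulated data with few changed genes and the same spread in all libraries. That check does not cover the wide spread between the 24 h libraries or the many genes called here.

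The members, gene lists and alternatives were chosen with earlier results of these data known. Genes named are the 15 highest and 15 lowest called protein-coding genes with a mean of at least 1 CPM whose groups did not overlap, the 3 highest and 3 lowest lncRNA genes on the same terms, up to 3 called members of each list in either direction, and a set of anchor genes; other members are named to describe their list. Symbols, lengths and positions are from GENCODE 44 (GRCh38), which held 60357 of the 60676 identifiers, and promoters from RefSeq (GRCh38.p14). Alternatives were limma-voom 3.58.1 with and without sample quality weights, DESeq2 1.42.0, median-of-ratios or library size scaling, other filters, only the 5 libraries, a replicate block, each library left out and, added after the data were seen, an offset for length and GC content.

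Nothing states that the replicate numbers pair the samples. Of 15 pairs of libraries with the same number, 2 had deviations from the group means that correlated above 0.1 (r from -0.16 to 0.21). In groups of 2 or 3 libraries such deviations mirror one another, so these values do not settle whether the numbers pair the samples.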

Additional observations from a re-analysis of the deposited data

How the results depend on the processing

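The number of calls in each direction stayed within 1.5 times under limma-voom, DESeq2, median-of-ratios scaling, the length and GC offset and both other filters. With sample quality weights 2531 genes were called (1455 higher, 1076 lower), and with the 5 libraries alone 3916 (1933 and 1983). Library size scaling gave 1269 higher and 7373 lower. Leaving out 1 library gave 7019 to 10544 calls, 3551 to 5178 higher and 3443 to 5366 lower, the most without 24 h replicate 1. Genes whose groups do not overlap numbered 11585 to 17265 with 1 library left out, where fewer libraries make separation easier, and 23362 without a filter, where more genes are counted. Since nothing states that the numbers pair the libraries, the replicate block is given only here. With it 7607 genes were called, 7467 of them with the same call. In the correlations, 4 of 11 libraries went best with their own number.

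Library size scaling turned the list medians of HIF targets (-0.090), DNA replication (-0.35), mitosis (-0.23), tRNA synthetases (-0.16), basal (-0.34) and luminal epithelium (-0.13), interferon-stimulated genes (-0.11), lysosome (-0.18), nutrient sensing (-0.33), the ATF4 response (-0.51) and the anchor genes (-0.34), and the uncalled values of TP63 (-0.34), KRT5 (-0.39), SLC2A3 (-0.092), EGLN3 (-0.12) and HIF1A (-0.34). The offset turned matrix genes (0.16) and VEGFA (0.051). With 1 library left out, the ER chaperone median ran from -0.27 to 0.21 (positive without 6 h replicate 3). On the same terms SLC2A3 ran from -0.051 to 0.76 and HIF1A from -0.16 to 0.45, both lowest without 24 h replicate 1. VEGFA ran from -1.16 to 0.12, MRPL12 from -0.024 to 3.08, FDXR from -0.041 to 1.36 and MT1X from -0.067 to 1.74; VEGFA was highest, and the other genes lowest, without 24 h replicate 2. Of 160 named genes that were called, 74 lost their call with quality weights, 38 of the 155 tested with the 5 libraries alone, 32 by library size, 26 without 24 h replicate 2 and 14 without replicate 1. Apart from the constructions named, the cause was not tested. With 2 libraries at 24 h, folds of genes with 3 or fewer counts in a library are not resolved at this depth.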

Other observations

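Of 2631 tested lncRNA genes, 241 were called higher (9.16%, against 22.1% of all tested genes) and 490 lower (18.6%, against 20.3%). Of 10 established long noncoding RNAs, 7 were lower and 0 higher (median -1.35). NEAT1, the scaffold of nuclear paraspeckles, was at 35.0 and 24.1 CPM under 59.6 to 83.8 CPM, and NORAD, which binds PUMILIO proteins in the cytoplasm, at 64.9 and 188 CPM under 297 to 376 CPM. MALAT1, a nuclear speckle RNA, was not called, at 513 and 142 CPM against 294 to 549 CPM. CHASERR, a noncoding regulator of CHD2, was among the 3 lncRNA genes with the largest rise, at 24.3 and 58.4 CPM over 7.23 to 8.95 CPM (2.30 ± 0.28; adjusted p = 0.00012). MIR29B2CHG, which hosts microRNAs of the miR-29 family, fell from 8.99, 5.51 and 3.54 CPM to 0.342 and 0.654 CPM.

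Of 219 tested zinc finger genes of chromosome 19, mostly transcriptional repressors, 20 were higher and 64 lower (median -0.36; -0.38 with either 24 h library alone), against 22.1% and 20.3% of all tested genes. Cytosolic aminoacyl-tRNA synthetases, which charge tRNAs, had 10 of 20 higher (50%, against 22.1% of all tested genes) and 0 lower. Their median was 0.42, 0.53 with 24 h replicate 1 alone and 0.041 with replicate 2 alone, and -0.16 by library size. KARS1, for lysine, was at 386 and 421 CPM over 169 to 198 CPM (1.13 ± 0.15; adjusted p = 0.00019). Of 10 tested mitochondrial tRNAs, 7 were lower and 0 higher.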
